A study of Mus musculus with 12 samples.

Results

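The genes of peroxisomal fatty acid oxidation were examined in the livers of mice lacking ENT3, the equilibrative nucleoside transporter encoded by Slc29a3. The set holds 9 genes of the 30743 that had a feature of their own on the array, namely Abcd3, Acox2, Ehhadh, Hsd17b4, Acaa1a, Acaa1b, Decr2, Ech1 and Crot. They were chosen by name, through the symbol that the platform table gives to each feature, and each had exactly 1 such feature. Earlier results of these data were known when they were chosen. The groups were 3 KO females, 3 KO males, 3 WT females and 3 WT males, each mouse on its own array. KO mice carried the ENT3 -/- genotype and WT mice ENT3 +/+, and no other allele or agent is named. All were of the strain labelled C57BL6/J, were 12 weeks old and gave snap-frozen liver. The mice are called below by sex and by the animal number in their title, with the letters F and M of the titles read as female and male. How the allele was made, and whether the mice came from 1 litter or several, is not stated in the labels, so p-values measure the spread between these mice.

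Peroxisomes shorten fatty acids that mitochondria handle poorly, such as very long-chain, branched and dicarboxylic acids and the side chains of bile acid precursors. Acyl groups enter through ABC transporters, an acyl-CoA oxidase makes the first double bond and hydrogen peroxide, a bifunctional protein hydrates and dehydrogenates, and a thiolase cleaves off acetyl-CoA; auxiliary enzymes rearrange double bonds, and carnitine acyltransferases help the shortened chains leave. In liver many of these genes are known targets of the nuclear receptor PPARα, which with its partner RXR binds direct repeats of the hexamer AGGTCA.

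In KO livers 7 of the 9 genes were lower than in WT livers over both sexes, and none was higher. The 7 were Acaa1b, Decr2, Ech1, Acaa1a, Crot, Acox2 and Hsd17b4, with log2 differences of KO minus WT between -3.64 and -1.13. Ehhadh and Abcd3 did not pass the test. The test was limma on the deposited log2 signals, with p-values adjusted by Benjamini-Hochberg over all 65956 transcript features and a threshold of 0.05. The same test called 4.47% of all features lower, 8.24% of genes at 1 feature each, and 29.9% of the 5052 protein-coding genes with a group above the negative controls. Because the 9 genes were chosen with earlier results of these data known, these shares are a background and not a test of the set. The median difference was -1.42 over the 9 genes, 0.05 over all features and -0.20 over those 5052 genes. In bulk liver, fewer cells of a type and less RNA per cell cannot be told apart. Every one of the 9 genes exceeded the 95th percentile of the negative controls on all 12 arrays, and none reached the ceiling of the deposited scale at 19.93. Some features also stopped at a limit of their own: 419 transcript features repeated their highest value exactly on 3 or more arrays, 84 of them below that ceiling, and none of the 9 genes did so on 2 or more.

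**Figure D1:**
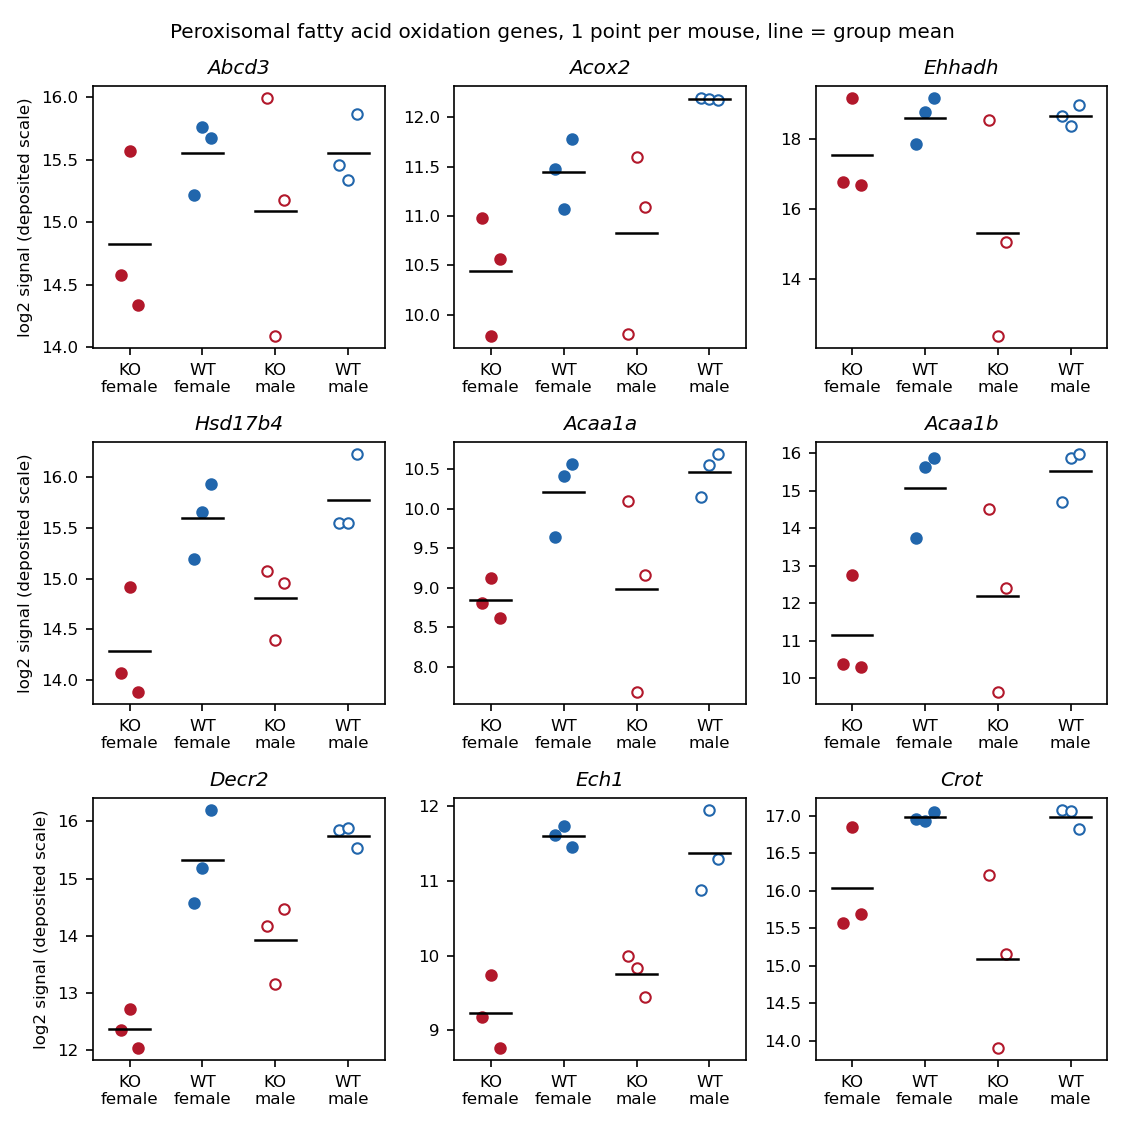
Log2 signal on the deposited scale (vertical axis, which differs between panels and does not start at 0) of the 9 genes, 1 point per mouse, in KO females, WT females, KO males and WT males, with a line at each group mean. Every KO point lies below every WT point for Hsd17b4, Decr2 and Ech1, while Ehhadh and Abcd3 have KO mice among the WT mice.

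The arrays differed between genotypes in measures other than these genes. The poly-A spikes, control RNAs added before labelling, averaged 5.44 ± 0.36 in KO and 6.30 ± 0.32 in WT (SD, n = 6 each; exact permutation within sex, two-sided p = 0.005, 0.0125 after adjustment over 5 array measures). The median of the negative controls was higher in KO by 0.14 (p = 0.005, adjusted 0.0125, by the same exact test). The median of the positive controls was lower in KO by 0.39 (exact permutation p = 0.01, adjusted 0.0167), and the median of the transcript features was higher by 0.07 (exact permutation p = 0.015, adjusted 0.0188). The hybridisation spikes, added after labelling, averaged 10.27 ± 0.21 in KO and 10.36 ± 0.16 in WT, a difference that did not pass (exact permutation p = 0.395). With the poly-A level as a covariate none of the 9 genes passed limma, and that fit called 3 of all features over both sexes. Of the 7 genes called without it, 5 had a larger estimated fall with it and 2 a smaller one, and their SEs were 2.20 to 2.55 times as large. The larger falls were -5.06 ± 2.05 (SE) for Acaa1b, -2.87 ± 0.75 for Decr2, -2.35 ± 0.86 for Acaa1a, -2.19 ± 0.88 for Crot and -1.53 ± 0.56 for Hsd17b4, with adjusted p between 0.282 and 0.504. The smaller ones were -1.20 ± 0.46 for Ech1 (adjusted p = 0.473) and -0.71 ± 0.77 for Acox2 (adjusted p = 0.860). The part of these array measures in the results was not tested further. As a check of the labels, Slc29a3 averaged 4.13 ± 0.04 in KO and 5.07 ± 0.18 in WT (SD, n = 6 each), which differed by limma (adjusted p = 0.000324), although both levels were within negative control range. Of 15 hepatocyte genes, 12 stood at the ceiling on all 12 arrays, so the tissue matched its label but its hepatocyte share could not be compared; 1 of the 15, Asgr1, was lower in KO by limma (-0.84 ± 0.23, SE; adjusted p = 0.0434).

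To show the genes beside their own start sites, the 250 bases upstream of 4 of them are given here in the GRCm38.p6 build from RefSeq. They are the 4 genes that passed over both sexes with the largest differences: Acaa1b at chr9:119157094-119157343 on the minus strand, Acaa1a at chr9:119341044-119341293 on the plus strand, Decr2 at chr17:26090165-26090414 on the minus strand and Ech1 at chr7:28825088-28825337 on the plus strand. Each is written 5′ to 3′ on the gene's own strand, and capitals mark CCAAT or its reverse complement ATTGG.
Acaa1b: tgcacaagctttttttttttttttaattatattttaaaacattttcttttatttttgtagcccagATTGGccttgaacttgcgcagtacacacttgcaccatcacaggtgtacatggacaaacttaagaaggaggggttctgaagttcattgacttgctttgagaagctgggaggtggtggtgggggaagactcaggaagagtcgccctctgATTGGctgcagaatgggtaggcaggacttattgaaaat
Acaa1a: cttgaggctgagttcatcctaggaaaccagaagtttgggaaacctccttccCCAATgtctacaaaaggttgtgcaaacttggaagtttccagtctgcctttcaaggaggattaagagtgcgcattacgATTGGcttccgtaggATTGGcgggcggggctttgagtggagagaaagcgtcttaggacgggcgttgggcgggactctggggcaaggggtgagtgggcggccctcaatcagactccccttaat
Decr2: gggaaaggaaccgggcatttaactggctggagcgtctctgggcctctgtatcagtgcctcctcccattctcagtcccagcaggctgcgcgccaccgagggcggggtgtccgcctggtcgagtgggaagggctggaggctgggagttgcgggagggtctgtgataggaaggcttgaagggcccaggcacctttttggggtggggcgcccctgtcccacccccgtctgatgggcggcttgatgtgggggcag
Ech1: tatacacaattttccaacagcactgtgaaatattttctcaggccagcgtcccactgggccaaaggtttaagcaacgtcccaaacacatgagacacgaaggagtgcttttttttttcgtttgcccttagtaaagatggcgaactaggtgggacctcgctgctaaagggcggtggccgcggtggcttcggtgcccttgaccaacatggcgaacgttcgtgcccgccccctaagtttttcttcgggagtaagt
Upstream windows were searched for 8 of the 9 genes, Hsd17b4 being left out. Abcd3 and Acox2 had 2 start sites each, which gave 10 windows. CCAAT on either strand was in 5 of the 10, with 2 copies before Acaa1b, 3 before Acaa1a, and none before Decr2 or Ech1. Of all 32851 RefSeq windows of this length, 33.85% held it. The hexamer AGGTCA on either strand was in none of the 10, against 14.02% of all windows. A direct repeat AGGTCANAGGTCA, exact or with up to 2 changed letters, was likewise in none, against 3.236% of all windows. These are matches of letters in a short window, and sites farther away were not searched.

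The importer was the least changed of the set. Abcd3, an ABC transporter of the peroxisomal membrane also known as PMP70, had log2 signals of 14.58, 15.57 and 14.34 in KO females 13, 40 and 69, and of 15.99, 14.09 and 15.18 in KO males 18, 19 and 39. In WT it had 15.22, 15.76 and 15.68 in females 25, 27 and 38, and 15.46, 15.34 and 15.87 in males 17, 23 and 33. The groups overlapped, since KO male 18 had the highest value of all 12 mice and 4 of 6 KO mice lay below every WT mouse. The difference was -0.59 ± 0.32 (SE; adjusted p = 0.305, limma, n = 6 each), which did not pass.

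Acox2, the acyl-CoA oxidase for branched chains and bile acid precursors, was lower in KO. Its log2 signals were 10.98, 9.79 and 10.56 in KO females 13, 40 and 69, and 9.81, 11.59 and 11.09 in KO males 18, 19 and 39. They were 11.48, 11.08 and 11.78 in WT females 25, 27 and 38, and 12.19, 12.19 and 12.17 in WT males 17, 23 and 33. Within each sex every KO mouse lay below every WT mouse, and over both sexes KO male 19 and KO male 39 reached the range of the WT females. Acox2 averaged 10.64 ± 0.73 in KO and 11.81 ± 0.46 in WT (SD, n = 6 each), a difference of -1.18 ± 0.30 (SE; adjusted p = 0.0349, limma). The call was lost in 8 of the 12 fits that left out 1 mouse each, all but those without KO female 13, KO male 18, KO male 19 or WT female 27. Over the 12 fits the difference ranged from -1.37 to -0.92, with an adjusted p of up to 0.0871. It was also lost without a sex term (adjusted p = 0.0512).

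The bifunctional proteins, which carry out the hydration and dehydrogenation steps, differed in how far KO and WT mice overlapped. Hsd17b4, the D-bifunctional protein, had 14.07, 14.91 and 13.88 in KO females 13, 40 and 69, and 15.07, 14.40 and 14.96 in KO males 18, 19 and 39. WT females 25, 27 and 38 had 15.20, 15.66 and 15.93, and WT males 17, 23 and 33 had 15.55, 15.55 and 16.22. All 6 KO mice lay below all 6 WT mice. The difference was -1.13 ± 0.22 (SE; adjusted p = 0.0108, limma, n = 6 each), and it passed in each of the 12 fits that left out 1 mouse. It did not pass when KO male 19 and WT female 38, the KO mouse farthest below and the WT mouse farthest above their sex's WT mean over the set, were both left out (adjusted p = 0.0504).

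Ehhadh, the L-bifunctional protein, which also acts on dicarboxylic acids, had 16.79, 19.16 and 16.69 in KO females 13, 40 and 69, and 18.54, 12.38 and 15.07 in KO males 18, 19 and 39. The WT signals were 17.85, 18.78 and 19.18 in females 25, 27 and 38, and 18.67, 18.37 and 18.97 in males 17, 23 and 33. KO female 40 and KO male 18 lay among the WT mice, and the other 4 KO mice lay below all of them, KO male 19 lowest. The KO mice averaged 16.44 ± 2.47 and the WT mice 18.64 ± 0.47 (SD, n = 6 each). The difference of -2.20 ± 0.90 (SE; adjusted p = 0.172, limma) did not pass, and it was called in 1 fit, without KO male 18, at -3.00 with an adjusted p of 0.0195.

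The thiolases Acaa1a and Acaa1b, which release acetyl-CoA in the last step, are neighbours on chromosome 9 with near-identical products. Acaa1b had log2 signals of 10.39, 12.75 and 10.30 in KO females 13, 40 and 69, and of 14.51, 9.63 and 12.39 in KO males 18, 19 and 39. In WT it had 13.74, 15.63 and 15.87 in females 25, 27 and 38, and 14.71, 15.87 and 15.98 in males 17, 23 and 33. Within each sex every KO mouse lay below every WT mouse, and over both sexes KO male 18 alone reached the WT range. This was the largest difference of the set, -3.64 ± 0.81 (SE; adjusted p = 0.0192, limma, n = 6 each), or 12.5-fold lower on the deposited scale. The call was lost without WT female 38 (adjusted p = 0.0514).

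Acaa1a moved in the same direction by less. It had 8.80, 9.12 and 8.62 in KO females 13, 40 and 69, and 10.10, 7.68 and 9.16 in KO males 18, 19 and 39. WT females 25, 27 and 38 had 9.64, 10.42 and 10.57, and WT males 17, 23 and 33 had 10.15, 10.56 and 10.69. Again the groups did not overlap within a sex, KO male 18 lay above WT female 25, and KO male 19 was lowest. The difference was -1.42 ± 0.36 (SE; adjusted p = 0.0319, limma, n = 6 each). It was lost in 8 of the 12 fits that left out 1 mouse, all but those without KO female 40, KO male 18, KO male 19 or WT female 25 (range -1.70 to -1.10, adjusted p up to 0.0800). Whether the features of Acaa1a and Acaa1b pick up each other's transcript was not tested, as probe sequences were not used here.

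The auxiliary enzymes for unsaturated chains had the smallest adjusted p-values of the set. Decr2, the peroxisomal 2,4-dienoyl-CoA reductase, had 12.36, 12.73 and 12.04 in KO females 13, 40 and 69, and 14.18, 13.15 and 14.46 in KO males 18, 19 and 39. The WT signals were 14.57, 15.18 and 16.20 in females 25, 27 and 38, and 15.85, 15.88 and 15.53 in males 17, 23 and 33. All 6 KO mice lay below all 6 WT mice, and the KO females all lay below the KO males. The difference was -2.38 ± 0.30 (SE; adjusted p = 0.00163, limma, n = 6 each), or 5.21-fold lower.

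Ech1, an enoyl-CoA isomerase that moves double bonds into position, is found in both peroxisomes and mitochondria. Its log2 signals were 9.18, 9.75 and 8.76 in KO females 13, 40 and 69, and 9.99, 9.83 and 9.45 in KO males 18, 19 and 39. They were 11.62, 11.74 and 11.46 in WT females 25, 27 and 38, and 10.88, 11.95 and 11.30 in WT males 17, 23 and 33. All 6 KO mice lay below all 6 WT mice. Ech1 averaged 9.49 ± 0.46 in KO and 11.49 ± 0.37 in WT (SD, n = 6 each), a difference of -2.00 ± 0.21 (SE; adjusted p = 0.000800, limma), or 3.99-fold lower. Decr2 and Ech1 passed in all 12 fits that left out 1 mouse. The start regions printed above for Decr2 and Ech1 hold no CCAAT, whereas those of the thiolases do, as do 33.85% of all windows. Any relation of CCAAT to the differences was not tested.

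Crot, the carnitine octanoyltransferase that loads shortened chains onto carnitine for export, was lower in KO and far more even in WT. It had 15.57, 16.86 and 15.69 in KO females 13, 40 and 69, and 16.21, 13.90 and 15.15 in KO males 18, 19 and 39. In WT it had 16.96, 16.93 and 17.06 in females 25, 27 and 38, and 17.08, 17.07 and 16.82 in males 17, 23 and 33. The 6 WT mice spanned a narrow band, only KO female 40 reached it, and within each sex the groups did not overlap. The difference was -1.42 ± 0.36 (SE; adjusted p = 0.0319, limma, n = 6 each). It was lost in 9 of the 12 fits that left out 1 mouse, all but those without KO female 40, KO male 18 or KO male 19 (range -1.70 to -1.13, adjusted p up to 0.0735), and also without KO male 19 and WT female 38 together (adjusted p = 0.0643).

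Taking overlap alone, all KO mice lay below all WT mice for 3 of the 9 genes over both sexes, Hsd17b4, Decr2 and Ech1, where this held for 1.94% of all features and 12.5% of the 5052 protein-coding genes above the negative controls. Within females it held for 7 of the 9 genes, where it held for 8.35% of all features and 40.1% of the 5052 genes. Within males it also held for 7 of the 9, where it held for 7.49% of all features and 28.9% of the 5052 genes. The exceptions in both sexes were Ehhadh and Abcd3.

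**Figure D2:**
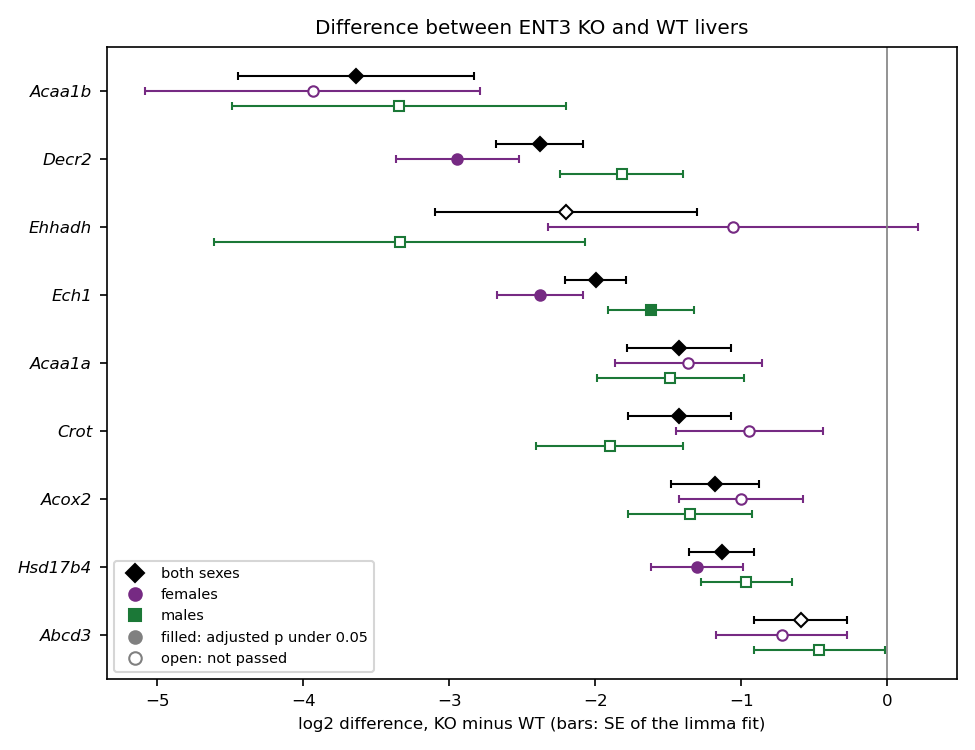
Log2 difference of KO minus WT (horizontal axis) for each gene over both sexes, in females and in males, with bars of 1 SE from the limma fit and filled symbols where the adjusted p was under 0.05. Every point lies left of 0, and Ech1 is the one gene filled in all 3 comparisons.

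Within females, 3 of the 9 genes passed the test lower in KO, with 3.06% of all features called lower in that comparison and 22.5% of the 5052 genes. They were Decr2 with -2.94 ± 0.42 (SE; adjusted p = 0.00466, limma), Ech1 with -2.38 ± 0.29 (adjusted p = 0.00272) and Hsd17b4 with -1.30 ± 0.31 (adjusted p = 0.0384). Within males, Ech1 alone passed, with -1.62 ± 0.29 (adjusted p = 0.0342), where 0.506% of all features and 4.37% of the 5052 genes were called lower. The Ech1 call in males was lost without any of KO female 13, KO male 18, KO male 19, KO male 39, WT female 27, WT male 23 or WT male 33, and when the arrays of males were fitted alone (adjusted p between 0.0572 and 0.110). The Hsd17b4 call in females was lost without KO female 13, KO female 69, KO male 39, WT female 27, WT female 38, WT male 17 or WT male 23, and when the arrays of females were fitted alone (adjusted p between 0.0530 and 0.141). The median difference of the 9 genes was -1.30 in females and -1.62 in males, against 0.07 in females and 0.03 in males over all features, and -0.24 in females and -0.14 in males over the 5052 genes.

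Whether the genotype difference itself differed between the sexes was tested as female minus male. None of the 9 genes passed, and at an unadjusted p under 0.05 there was also none, while 0.00152% of all features passed. The estimates ran from -1.13 ± 0.59 for Decr2 (SE; adjusted p = 0.804, limma) to 2.28 ± 1.80 for Ehhadh (adjusted p = 0.884), and 5 of the 9 had the larger fall in females. In WT livers, female minus male differences ran from -0.74 ± 0.42 for Acox2 (adjusted p = 0.889) to 0.23 ± 0.29 for Ech1 (adjusted p = 0.991), and none passed, with 0 also at an unadjusted p under 0.05 and 0.206% of all features called. Acox2 was the one gene whose WT females and WT males did not overlap, with group means of 11.44 ± 0.35 in females and 12.18 ± 0.01 in males (SD, n = 3 each). How many of all features separated the WT sexes in this way was not counted, so the separation is not read as a trait of Acox2.

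Across the 4 groups, both KO means lay below both WT means for all 9 genes. KO females had the lowest mean for 7 genes, and KO males for the other 2, Ehhadh and Crot. For Ehhadh the group means were 17.55 ± 1.40 in KO females, 15.33 ± 3.09 in KO males, 18.60 ± 0.68 in WT females and 18.67 ± 0.30 in WT males (SD, n = 3 each). For Crot they were 16.04 ± 0.71 in KO females, 15.09 ± 1.16 in KO males, 16.98 ± 0.07 in WT females and 16.99 ± 0.14 in WT males. The ranges of KO females and KO males overlapped for 8 of the 9 genes, all but Decr2, and KO females were not tested against KO males. The share of all features separating the KO sexes was not counted either.

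**Figure D3:**
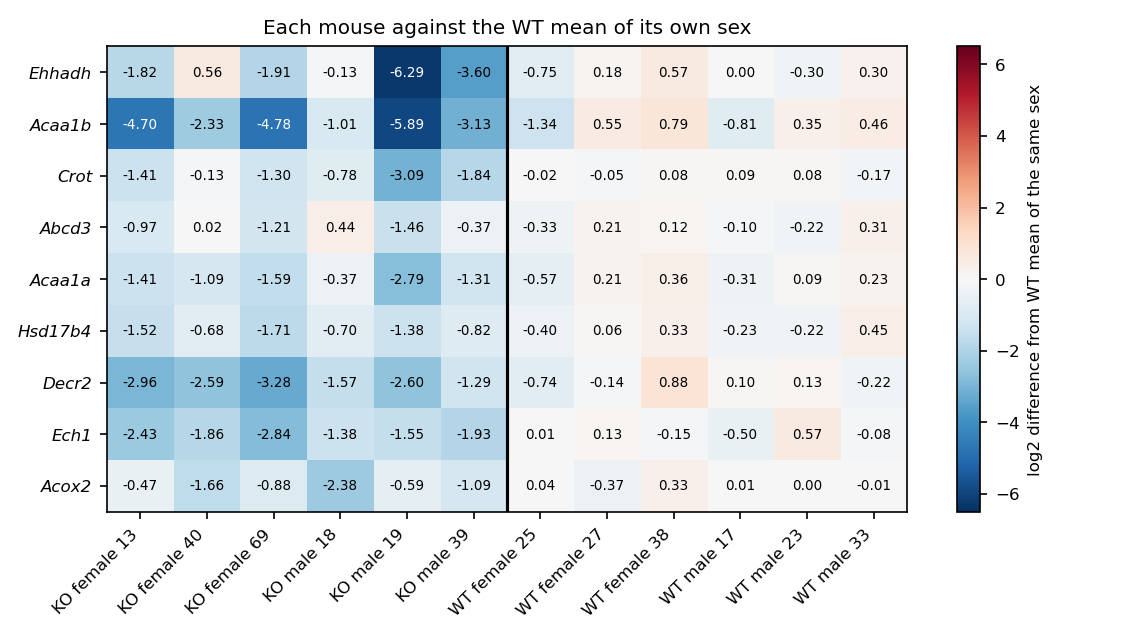
Log2 difference of each mouse (columns, KO left of the line and WT right of it) from the WT mean of its own sex, for the 9 genes (rows), with the value in each cell. KO female 40 and KO male 18 lie between -0.78 and 0.56 for Ehhadh, Abcd3 and Crot but have the lowest cells for Acox2, and KO male 19 has the lowest cells for Ehhadh and Acaa1b.

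The KO mice did not rank alike from gene to gene. Set against the WT mean of its own sex, KO male 19 stood at -6.29 for Ehhadh, -5.89 for Acaa1b and -3.09 for Crot, the lowest of the 12 mice for each. The same mouse stood at -0.59 for Acox2, where it had the highest signal among the KO mice. KO male 18 showed the opposite order, with -0.13 for Ehhadh, 0.44 for Abcd3 and -2.38 for Acox2. KO female 40 resembled KO male 18 in this, with 0.56 for Ehhadh, 0.02 for Abcd3 and -1.66 for Acox2. For Decr2 and Ech1, by contrast, every KO mouse stood at -1.29 or lower. Over the set, the median deviation of a KO mouse ran from -2.60 in KO male 19 to -0.78 in KO male 18, and that of a WT mouse from -0.40 in WT female 25 to 0.33 in WT female 38.

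The KO mice also varied more among themselves. The SD within a sex was larger in KO than in WT for 8 of the 9 genes, with Decr2 the exception (0.54 in KO and 0.60 in WT). The same was true of 61.44% of the 5052 protein-coding genes. For Ehhadh the SD within a sex was 2.40 in KO and 0.53 in WT, and for Crot it was 0.96 in KO and 0.11 in WT. These spreads are given without a test.

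Markers of other cell types moved with genotype as well. As background to each cell type list, 6432 of all 65956 transcript features were called in either direction, 2950 of them lower. Of 13 macrophage genes, 10 were higher and 1 was lower in KO. Marco, a scavenger receptor, differed by 6.27 ± 0.73 (SE; adjusted p = 0.00122, limma) and Csf1r, the macrophage growth factor receptor, by 3.07 ± 0.48 (adjusted p = 0.00385). Cd163 was above the negative control limit in no KO mouse and in all 6 WT mice. With KO set at that limit it was at least 1.40-fold lower. Its adjusted p of 0.000942 is from limma on the deposited signals, not set at that limit. The mean macrophage signal ran from 9.20 to 12.81 in KO mice and from 7.61 to 8.91 in WT mice. Of 11 neutrophil genes, 8 were higher, among them S100a8 by 8.30 ± 1.02 (adjusted p = 0.00155), with 5 of its 6 WT values not above the negative control limit, and 9 of the 11 lay below the negative control limit in all WT mice; their mean ran from 5.09 to 8.20 in KO mice and from 4.20 to 4.74 in WT mice. KO female 40 had the highest macrophage signal, 12.81, and KO male 39 the lowest of the KO mice, 9.20, while KO male 19, lowest for Ehhadh and Acaa1b, had 9.68. Of the remaining lists, the 8 T and NK cell, 4 cholangiocyte, 7 stellate and 4 erythroid genes had none called, the 4 B cell genes had 1 higher, and the 6 endothelial genes had 3 higher and 2 lower. The part of these cells in the values of the 9 genes was not tested.

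**Figure D4:**
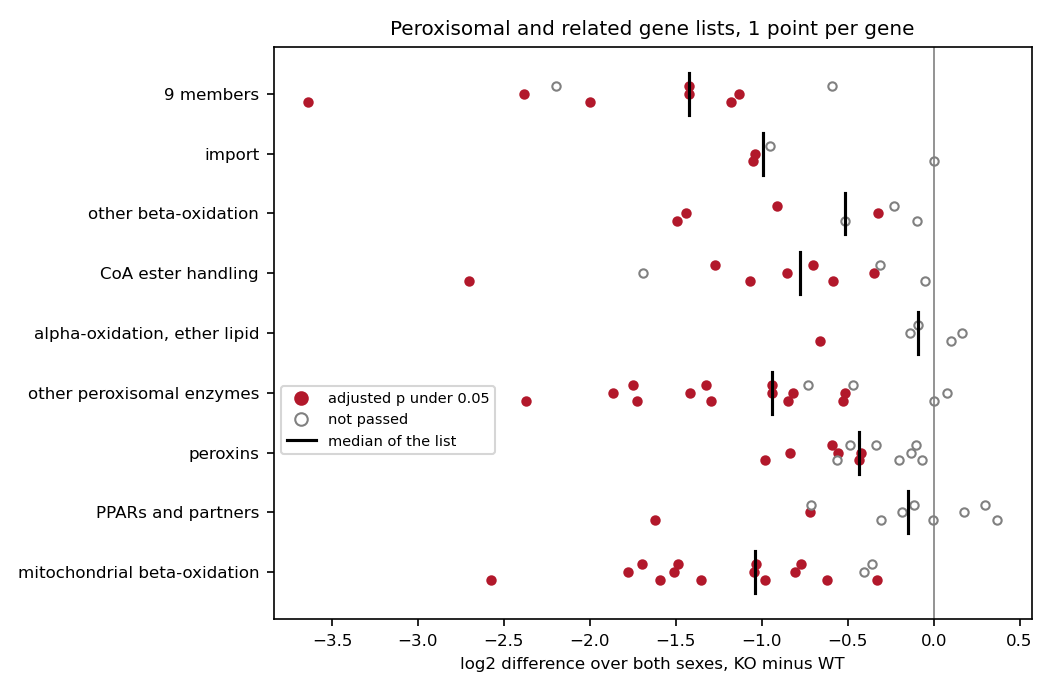
Log2 difference of KO minus WT over both sexes (horizontal axis) for each measured gene of the set and of 8 related lists, 1 point per gene, filled where the adjusted p was under 0.05, with a line at the list's median. No filled point lies right of 0 in any of these lists.

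Around the 9 genes, other genes of the peroxisome were mostly lower too. Of 56 measured peroxisomal genes outside the set, 33 were lower in KO, 0 were higher and 23 did not pass over both sexes, with a median difference of -0.59. Of the 5052 protein-coding genes above the negative controls, 29.9% were called lower, with a median of -0.20. The same background stands beside each list that follows. Among the 23, Cat stood at the common ceiling and Slc27a2 at 19.89, its own limit, on all 12 arrays, so neither could show a difference; Scp2 and Phyh stood at their own limits, 18.99 and 19.63, on 3 KO and all 6 WT arrays, which truncates their differences. In females 23 of the 56 were called lower and in males 5, against 22.5% and 4.37% of the 5052 genes. Among 4 genes of import, Slc27a2 included, 2 were lower. Slc25a17, the peroxisomal carrier of cofactors, fell by 1.05 ± 0.10 on the log2 scale (SE; adjusted p = 0.000548, limma), and Acbd5, a membrane protein that binds acyl-CoA, fell by 1.04 ± 0.17 (adjusted p = 0.00515). Of 7 further genes of the pathway 4 were lower: Pecr, an enoyl-CoA reductase, by -1.49 ± 0.18 (adjusted p = 0.00160), Acad11, an acyl-CoA dehydrogenase, by -1.44 ± 0.18 (adjusted p = 0.00164), Amacr, the racemase that prepares branched chains, by -0.91 ± 0.17 (adjusted p = 0.00979), and Acox3, whose signal lay below the negative control limit on all arrays (adjusted p = 0.0277). Pecr differed by -2.33 in females (adjusted p = 0.0019, limma) and by -0.66 in males, where it did not pass (adjusted p = 0.32). Its difference between the sexes did not pass either (adjusted p = 0.352, limma).

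Enzymes that handle CoA esters in the peroxisome were lower for 7 of 10 genes, with a median of -0.78. Baat, which joins bile acids to amino acids, fell by 0.86 ± 0.14 on the log2 scale (SE; adjusted p = 0.00463, limma), and Nudt19, a CoA hydrolase, by 0.58 ± 0.09 (adjusted p = 0.00282). The thioesterases Acot4 and Acot8 were above the negative control limit in no KO mouse, and in 5 and 6 of the 6 WT mice. With KO set at that limit, Acot4 was at least 1.32-fold lower and Acot8 at least 1.26-fold lower. The limma test used the deposited signals, not set at that limit, with adjusted p = 0.0123 for Acot4 and 0.0130 for Acot8. In alpha-oxidation and ether lipid synthesis 1 of 5 genes was lower, Gnpat, the acyltransferase that starts ether lipids, at -0.66 ± 0.11 (adjusted p = 0.00577), and the median was -0.09.

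Other peroxisomal genes, outside fatty acid oxidation, were lower for 13 of 17, with a median of -0.94. The 17 are mostly enzymes and include the membrane proteins Pxmp2 and Pxmp4, both called lower. Pxmp4 differed by -0.14 in females (adjusted p = 0.726, limma) and by -1.74 in males (adjusted p = 0.0068). Its difference between the sexes did not pass (adjusted p = 0.178, limma). Ephx2, the soluble epoxide hydrolase, fell by 2.37 ± 0.31 on the log2 scale (SE; adjusted p = 0.00203, limma). Nudt12, which cleaves nicotinamide nucleotides, fell by 1.87 ± 0.18 (adjusted p = 0.000610), Dhrs4, a carbonyl reductase, by 1.72 ± 0.22 (adjusted p = 0.00173), and Gstk1, a glutathione transferase, by 1.42 ± 0.18 (adjusted p = 0.00191). Of the 13 peroxins, which build the organelle, 6 were lower, among them Pex19, which inserts membrane proteins, at -0.98 ± 0.15 (adjusted p = 0.00335), Pex7 and Pex5, the receptors for imported enzymes, at -0.84 ± 0.12 (adjusted p = 0.00247) and -0.42 ± 0.07 (adjusted p = 0.00555), and Pex14, their docking protein, at -0.59 ± 0.09 (adjusted p = 0.00373), not above the negative control limit in 3 of 6 KO mice; the median of the list was -0.44.

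Of 10 measured PPARs, RXRs and partners, 2 were lower and the median was -0.15. Neither exceeded the background, as 29.9% of the 5052 protein-coding genes were called lower, with a median of -0.20. Ppara, which encodes PPARα, had log2 signals of 8.62, 8.25 and 8.59 in KO females 13, 40 and 69, and of 10.86, 8.64 and 10.82 in KO males 18, 19 and 39. WT females 25, 27 and 38 had 10.40, 10.36 and 10.71, and WT males 17, 23 and 33 had 10.92, 11.48 and 11.65. Within each sex every KO mouse lay below every WT mouse. Over both sexes, KO males 18 and 39 lay above the WT females, and the other 4 KO mice lay below all WT mice. The difference was -1.62 ± 0.35 (SE; adjusted p = 0.0173, limma, n = 6 each). Creb3l3, a liver transcription factor that acts with PPARα, fell by 0.72 ± 0.07 on the log2 scale (adjusted p = 0.000794). Set against the WT mice of their own sex, KO females 13 and 69 and KO males 19 and 39 lay below them for both Ppara and Ehhadh. KO female 40 and KO male 18 lay below them for Ppara alone, and among them for Ehhadh.

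Among 12 measured targets of PPARα outside the peroxisome, 6 were lower and the median was -1.32. Vnn1, a pantetheinase, fell by 4.62 ± 0.86 on the log2 scale (SE; adjusted p = 0.00887, limma), a difference that includes 3 of 6 KO mice not above the negative control limit. Acot2, a mitochondrial thioesterase, fell by 3.49 ± 0.59 (adjusted p = 0.00568), Cyp4a32, a fatty acid hydroxylase of the cytochrome P450 family, by 1.23 ± 0.18 (adjusted p = 0.00299), and Angptl4, an inhibitor of lipoprotein lipase, by 0.80 ± 0.16 (adjusted p = 0.0130). Cyp4a14 stood at the ceiling on all 12 arrays. Mitochondrial fatty acid oxidation, which shares its chemistry with the peroxisomal pathway, was lower for 14 of 16 genes, with a median of -1.04. Eci1, an enoyl-CoA isomerase, fell by 2.57 ± 0.31 (adjusted p = 0.00139), Cpt2, the inner carnitine palmitoyltransferase, by 1.59 ± 0.20 (adjusted p = 0.00167), Acads, the short-chain dehydrogenase, by 1.03 ± 0.13 (adjusted p = 0.00164), and Acaa2, the mitochondrial thiolase, by 0.98 ± 0.12 (adjusted p = 0.00172). The peroxisomal set was not tested against the mitochondrial one.

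The genes whose pattern over the 12 arrays was most like the mean pattern of the set were found among 19175 protein-coding genes, by the root mean square difference between centred log2 profiles. They were Hadhb, a subunit of the mitochondrial trifunctional protein, at 0.28, Cpox, an enzyme of haem synthesis, at 0.30, Slc25a20, the mitochondrial carnitine carrier, at 0.30, Decr1, the mitochondrial counterpart of Decr2, at 0.31, and Dhrs4 at 0.35. The members themselves stood at 0.25 for Acaa1a to 1.28 for Ehhadh from the same mean pattern. This likeness is a description over these 12 arrays, which share the genotype difference.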

How the data were processed

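Values were the log2 signals that the authors deposited for 72688 array features. The submitters' processing notes name Transcriptome Analysis Console, and its version, its normalization and the build are not given in the sources. Control features, 6732 in number, entered no test. Symbols came from platform annotation, updated through RefSeq synonyms: of 65956 transcript features, 31216 had 1 symbol, 1534 had several and were not named, and 33206 had none; 30438 of 30743 genes were found in the RefSeq table. Where a gene had several features, that with the highest mean was used.

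In R 4.3.3, limma 3.58.1 fitted a mean for each of the 4 groups over the 12 arrays (lmFit and eBayes; 8 residual degrees of freedom). The fit was also run on simulated data with independent noise, 50 features being lowered in KO at each of 4 sizes. It recovered 52% at 0.5 log2, 90% at 1 log2 and 100% at 2 and 4 log2, with 13 false calls. The array differences between genotypes were not part of that simulation, so it does not bear on them. Array measures were compared by exact permutation within sex (400 arrangements). Folds refer to the deposited scale, where a common ceiling of 19.93, and lower limits of single features, truncate bright genes; the number of arrays limits the precision. The 9 genes and all lists were chosen with earlier results of these data known. Of each list outside the 9, up to 4 genes called over both sexes with the smallest p were named, and Ppara in any case. Alternatives changed the scaling, filter, feature choice, variance prior, covariates, arrays fitted, call rule and mice included.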

Additional observations from a re-analysis of the deposited data

How the results depend on the processing

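Over both sexes 7 of the 9 genes were called lower under median centring, quantile normalization, a low signal filter, the mean of a gene's features, trended robust variance and a further limit of 1.5-fold. The number was 6 without a sex term, 5 without KO male 19 and WT female 38, 3 to 8 when 1 mouse was left out, and 0 with the poly-A covariate, where 5 of the 7 falls were larger and SEs were 2.20 to 2.55 times as large. In females it was 3, with 2 to 5 when 1 mouse was left out and 0 with the poly-A covariate; in males it was 1, with 3 under quantile normalization and under the low signal filter, 0 for males fitted alone and with the poly-A covariate, and 0 to 2 when 1 mouse was left out.

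The number of all features called in either direction over both sexes was 6432, with 4553 to 6599 when 1 mouse was left out, 3661 at 1.5-fold or more and 3 with the poly-A covariate. In females it was 4083, with 1581 to 4563 when 1 mouse was left out, 1853 for females alone, 74 with the poly-A covariate and 1959 without KO male 19 and WT female 38. In males it was 716, with 161 to 938 when 1 mouse was left out, 1089 under quantile normalization, 1661 under the low signal filter, 37 for males alone, 0 with the poly-A covariate and 1130 without KO male 19 and WT female 38. For the difference between the sexes it was 1, with 0 to 55 when 1 mouse was left out, 4 under median centring, 0 under quantile normalization, feature means and trended variance, 19 under the filter, 5 with the covariate and 57 without those 2 mice. For female against male in WT it was 136, with 29 to 240 when 1 mouse was left out, 40 under quantile normalization, 208 under the filter, 42 under trended variance, 10 with the covariate and 265 without those 2 mice. The filter tests fewer features and the fits to 1 sex use fewer arrays; the cause of the other shifts was not tested.

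Signs changed for values that did not pass. Abcd3 in males was 0.035 without KO male 19, alone or together with WT female 38, and -0.92 to 0.035 over the fits without 1 mouse. The female minus male difference of KO minus WT ran, over those fits, from -0.16 (without KO male 18) to 0.73 for Acox2, from -1.87 to 0.57 (without KO male 18) for Acaa1b and from -0.76 to 0.19 (without KO male 18) for Abcd3. For Acaa1a it ran from -0.52 (without KO male 19) to 0.69, with -0.01 without KO female 40, -0.16 without WT female 25 and -0.35 without KO male 19 and WT female 38. Ech1, female minus male in WT, ran from -0.022 (without WT male 17) to 0.51. No paired analysis was possible because no animal number occurs in more than 1 group. Of 758 alternative fits for 38 named genes outside the set, 695 kept direction and call, 63 lost the call, and 0 reversed.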
